A study of Mus musculus with 35 samples.

Results

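DNA methylation is kept through cell division by DNMT1, the maintenance methyltransferase, together with UHRF1, which binds hemimethylated DNA at replicated sites and brings DNMT1 there. New methylation is laid down by DNMT3A and DNMT3B, and DNMT3L, which has no catalytic activity of its own, stimulates both and is a known gene of undifferentiated cells and the germ line. TET1, TET2 and TET3 oxidise 5-methylcytosine to 5-hydroxymethylcytosine and further, and TDG excises the most oxidised forms so that base excision repair can restore cytosine. The RNA levels of these 9 genes (Dnmt1, Uhrf1, Dnmt3a, Dnmt3b, Dnmt3l, Tet1, Tet2, Tet3 and Tdg) are described here. They were taken by gene symbol, and all 9 were found among the 17948, 18091 and 17705 genes of 3 RNA-seq tables and passed the filter on low values in each.

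All cells were mouse V6.5 embryonic stem cells (ESCs), a male line of mixed 129 and C57BL/6 background, differentiated toward neuroectoderm (NE) with 1 µM retinoic acid for 72 hours per the labels, with LIF withdrawn. The genotypes were Tet3+/+, Tet3m/m (a catalytic mutant made by CRISPR/Cas9 substitution in the iron-binding site) and Tet3-/- (an exon deleted, which shifts the reading frame). The first table held untransfected day 3 cells (3 Tet3+/+, 3 Tet3m/m and 2 Tet3-/- samples) from separate clones. In the Dnmt1 experiment, each genotype received a plasmid for myc-tagged Dnmt1 or the empty vector before differentiation and was drug selected, with 2 samples per genotype and vector. In the Tet3-CD experiment, each genotype received an HA-tagged TET3 catalytic domain or the empty vector, with 1 sample each, and the methods place its harvest later than the labels do. For the Dnmt1 experiment nothing used here says whether the 2 samples of a group were separate cultures or clones, so its p-values measure the spread between those samples, which may be technical. A difference between clones of different genotype can also be a difference between clones.

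Values are normalized counts, that is, read counts that the authors divided by DESeq2 size factors within each table, so levels are compared only within a table. A sample held 31155842 to 50845950 reads. The largest spread was between day 3 replicates (median absolute log2 difference of 0.17 to 0.30 over genes, against 0.10 to 0.14 in the Dnmt1 experiment). Gene-level values cannot separate endogenous Dnmt1 or Tet3 from the transfected copies, and they resolve neither the point mutation nor the deleted exon. Whether counting used strand is not given in the sources used here, so reads of Dnmt3a and Dnmt3b cannot be told apart from those of the antisense genes that overlap them, and Tdg, Dnmt3a, Dnmt3b and Dnmt3l have pseudogenes or a near-identical copy that could take a share of their reads. In bulk RNA, fewer cells of a type and less RNA per cell cannot be told apart.

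The NE label was checked against whole marker lists in Tet3+/+ cells. Summed over the list, the NE genes were at 23823 to 32427 normalized counts on day 3, the pluripotency genes at 6577 to 9806 and the endoderm genes at 7964 to 8514. Highest on the NE list were Nes (6667 to 11618), Cdh2 (4806 to 6317) and Sox2 (3203 to 4693). Pax6 was at 1484 to 2063. Lowest were Hes5 (128.9 to 243.1), Neurog2 (73.25 to 123.3) and Olig2 (31.8 to 52.3). The sums were not corrected for the number or length of the genes, so lists are not ranked by them. In the empty-vector cells of the Dnmt1 experiment the sums were 19716 to 19816 for NE, 27873 to 28297 for pluripotency and 24880 to 26498 for endoderm, and in the single empty-vector sample of the Tet3-CD experiment 14673, 7730 and 67790. Cubn gave 27912 of the last of these sums, Dab2 20626, Gata6 7108 and Sox17 6065, and the lowest endoderm gene was Afp (399.5). In that sample the mean log2 level was 11.83 for the endoderm list and 8.975 for the NE list. Its primitive streak and mesoderm list summed to 26409, with Gata4 at 14098 and Pdgfra at 11469. That sample is the only Tet3+/+ reference for the genotype ratios of the Tet3-CD experiment. Markers of other cell types were thus present beside those of NE in every table, and their values are given beside the results they accompany.

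Promoter sequences of 3 of the 9 genes are shown to set the maintenance pair, Dnmt1 and Uhrf1, beside Dnmt3l, which varied most on day 3. The windows run from 250 bases before to 50 after an annotated start (RefSeq, build GRCm38.p6, 300 bases each), and windows were found for 9 of 9 members. An E2F-type motif, as TTTCCCGC, TTTCGCGC, TTTGCCGC or TTTGGCGC on either strand, was searched in all 32817 windows and was found in 2.26% of them. Among the members, 2 of 9 genes had a window with the motif, where 2.60% of 26994 genes had one. Dnmt1 has 3 windows and Uhrf1 has 2, and for each the window that holds the motif is shown. That Dnmt1 window (chr9:20952574-20952873, minus strand) held 2 matches, and the Uhrf1 window (chr17:56304063-56304362, plus strand) held 1 match, shown in capitals. From the annotated start of its window, the Dnmt1 matches began at -218 and 34, the latter after the start, and the Uhrf1 match at -184. The other windows of both genes belong to starts further upstream and held 0 matches. Which start these cells use was not examined.
Dnmt1: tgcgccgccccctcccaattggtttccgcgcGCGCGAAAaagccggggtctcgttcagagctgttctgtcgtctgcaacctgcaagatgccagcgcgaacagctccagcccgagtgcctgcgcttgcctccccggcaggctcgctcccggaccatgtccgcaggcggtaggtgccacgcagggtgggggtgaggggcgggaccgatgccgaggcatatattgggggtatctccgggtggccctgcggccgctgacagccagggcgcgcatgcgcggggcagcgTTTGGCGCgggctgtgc
Uhrf1: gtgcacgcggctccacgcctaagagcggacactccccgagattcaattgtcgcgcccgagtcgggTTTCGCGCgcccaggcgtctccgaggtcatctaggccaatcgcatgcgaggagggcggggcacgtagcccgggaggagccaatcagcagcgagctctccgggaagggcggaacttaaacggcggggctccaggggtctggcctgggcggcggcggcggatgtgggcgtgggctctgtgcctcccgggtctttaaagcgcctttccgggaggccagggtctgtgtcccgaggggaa
Both windows shown held 33 CpG dinucleotides, against a median of 7 over all windows. These 2 windows were picked for a motif that itself holds a CpG. The other windows held 12 and 2 CpGs for Dnmt1 and 12 for Uhrf1. Counts for members not shown were 46, 47 and 18 for Dnmt3a, 57 for Tet2 and 30 for Dnmt3b. Tdg had 26, Tet3 22 and Tet1 17, so a CpG-rich window was not particular to the maintenance pair. Dnmt3l had 6, 4 and 3 CpGs in its 3 windows. Its first window (chr10:78042037-78042336, plus strand) is printed with each CpG in capitals.
Dnmt3l: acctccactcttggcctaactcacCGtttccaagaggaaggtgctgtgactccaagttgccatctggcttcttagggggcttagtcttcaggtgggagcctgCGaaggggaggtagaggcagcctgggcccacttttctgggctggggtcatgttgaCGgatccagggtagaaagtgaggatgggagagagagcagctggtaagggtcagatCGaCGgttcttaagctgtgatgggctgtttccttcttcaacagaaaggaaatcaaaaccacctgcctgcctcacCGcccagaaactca
A match is a description of letters in a window and does not show that a factor binds there.

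The 9 genes spanned a wide range of levels. Compared per kilobase of exon in day 3 Tet3+/+ cells, Uhrf1 was highest (mean 2627 normalized counts per kilobase, range 2487 to 2730), followed by Dnmt1 (2226) and Tdg (915.7). The de novo group followed with Dnmt3b at 535.9, Dnmt3a at 429.0 and Dnmt3l at 324.2. The Tet genes were lowest, with Tet3 at 283.7, Tet2 at 111.2 and Tet1 at 108.2. Neighbours in this order did not overlap between samples except Dnmt3l with Tet3 and Tet2 with Tet1. The order changed with the experiment: in empty-vector Tet3+/+ cells of the Dnmt1 experiment Dnmt3l, at 1895 per kilobase, stood next to Dnmt1 (2027), and Tet1 (202.8) stood above Tet3 (180.6). With the longest coding transcript as the length, a choice made after the values were seen, Dnmt3a passed Dnmt3b on day 3, and Dnmt3l passed Dnmt1 and Tet3 passed Tet1 in the empty-vector cells.

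**Figure D1:**
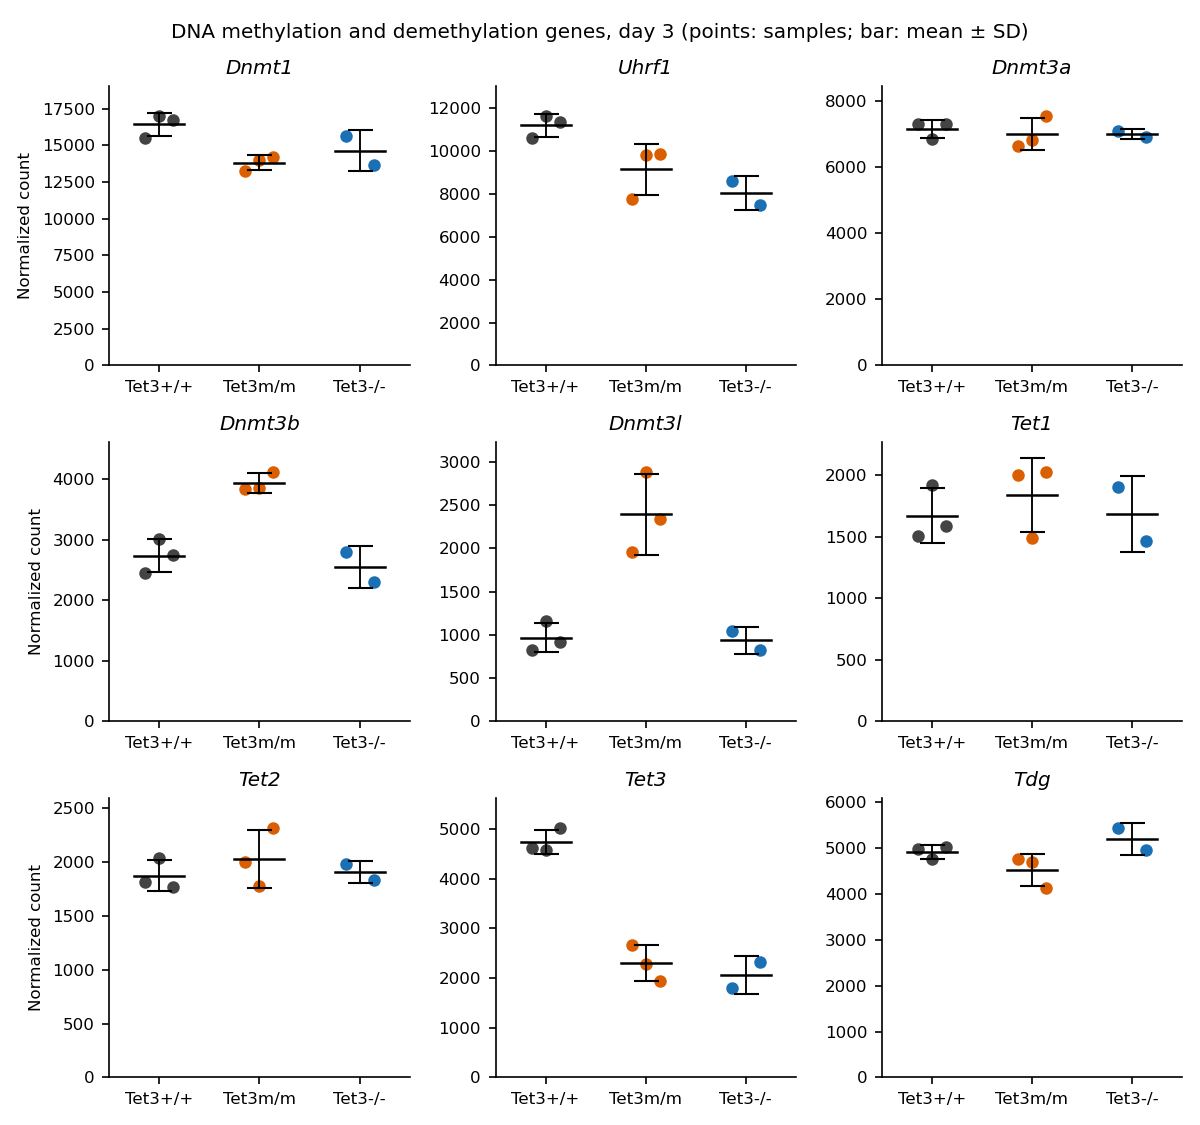
Normalized counts of the 9 genes in the 8 day 3 samples, with 1 point per sample and a bar at the mean of each genotype. Dnmt3l and Dnmt3b lie above the other genotypes in all 3 Tet3m/m samples, and Tet3 lies below Tet3+/+ in both mutants.

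Tet3 is the edited gene and was examined first, with each comparison made in limma on log2(value + 1) and a call at an adjusted p under 0.05 over all genes tested. Its day 3 normalized counts were 4612.5, 4576.5 and 5020 in Tet3+/+, 2666, 2277 and 1945 in Tet3m/m, and 1796 and 2329 in Tet3-/-. No mutant sample overlapped a Tet3+/+ sample. Tet3 fell by 2.08-fold in Tet3m/m and by 2.31-fold in Tet3-/- (limma adjusted p 0.00071 and 0.0274). In Tet3-/- the call was lost without any one of the 3 Tet3+/+ samples (adjusted p 0.0704, 0.126 and 0.0888), without Tet3m/m replicate 2 (0.0711) or without either Tet3-/- sample (0.0759 and 0.0765), while the log2 fold change stayed between -1.40 and -1.02. In the Dnmt1 experiment the empty-vector values were 2957 and 3075 in Tet3+/+, 1125 and 963.7 in Tet3m/m, and 2520 and 2571 in Tet3-/-. Tet3m/m was 2.89-fold lower (limma adjusted p 5.58e-13). Tet3-/- was lower by 1.19-fold (adjusted p 0.0114), less than on day 3, and this call was lost without one of the Tet3+/+ samples (0.0839) or without Tet3-/- replicate 1 (0.0666). The 2 experiments were normalized separately, so the difference between them was not tested.

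The genes around Tet3 on chromosome 6 differed too, in Tet3m/m cells. Of the 100 tested genes nearest to it, 90 were lower than in Tet3+/+ on day 3, with a median log2 fold change of -0.85, and 88 were lower with the empty vector, with a median of -0.74. Over the tested genes of the whole chromosome the medians were -0.22 and -0.24, so the whole-chromosome median was lower too. Set against these neighbours, Tet3 was lower by a further 0.20 on the log2 scale on day 3 and 0.79 with the empty vector. In Tet3-/- cells the neighbours' medians were 0.02 and 0.18, so that Tet3 stood 1.23 and 0.42 below them. For the other 8 genes the day 3 medians of the neighbours lay between -0.04 and 0.14 in the 2 comparisons with Tet3+/+, so none of those genes sat among neighbours that moved as far. The part of the neighbourhood in the level of Tet3 in Tet3m/m cells was not tested.

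On day 3, 3 of the 9 genes passed the test in Tet3m/m, 2 higher (Dnmt3l and Dnmt3b) and 1 lower (Tet3), where 13.9% of all genes tested passed (6.59% higher, 7.28% lower). In Tet3-/- only Tet3 passed, against 0.681% of all genes (0.480% higher, 0.201% lower). Between Tet3-/- and Tet3m/m, Dnmt3l and Dnmt3b passed, both lower in Tet3-/-, against 12.2% of all genes (6.96% higher, 5.29% lower).

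Among the de novo genes, Dnmt3l had the largest change. Its day 3 values were 825.9, 1159 and 921.2 normalized counts in Tet3+/+, 1955, 2883 and 2338 in Tet3m/m, and 1044.5 and 827.7 in Tet3-/-. Every Tet3m/m sample was above every other sample. Dnmt3l rose 2.46-fold in Tet3m/m (log2 1.30, SE 0.17, limma adjusted p 0.000909), and Tet3-/- was lower than Tet3m/m by 2.54-fold (adjusted p 0.00201). Against Tet3+/+, Tet3-/- differed by -0.04 (95% interval -0.47 to 0.38, adjusted p 0.921), and this sign turned when single samples were left out. Dnmt3b moved the same way by less: 2458.5, 3009 and 2741 in Tet3+/+, 3836, 3847 and 4120 in Tet3m/m, and 2796 and 2309 in Tet3-/-. It rose 1.44-fold in Tet3m/m (log2 0.53, SE 0.11, adjusted p 0.0092) and was lower in Tet3-/- than in Tet3m/m (adjusted p 0.00799), a call lost without Tet3-/- replicate 2 (0.055). Dnmt3a, the other de novo enzyme, lay between 6635 and 7537 in all 8 samples, the narrowest range of the 9 genes. Its difference from Tet3+/+ was -0.03 on the log2 scale in both mutants, with 95% intervals of -0.21 to 0.15 and -0.23 to 0.18.

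Of the pluripotency list (9 genes), 1 passed on day 3 in Tet3m/m, against 13.9% of all genes. Its median log2 fold change in Tet3m/m was 0.65, with 9 of 9 genes above 0 and the called gene higher (Dppa4, a gene of undifferentiated cells, 0.91), beside a median of 0.00 over all genes. Its summed level was 8198 to 19659 normalized counts in Tet3m/m and 6577 to 9806 in Tet3+/+, so the ranges overlapped, and no gene of the list was at 0. The endoderm list (8 genes) had a median of 0.54, with 2 called higher, the visceral endoderm marker Cubn (2.30) and the transcription factor gene Sox7 (1.46), and 0 lower. The mesoderm list had 1 of 7 called higher (Eomes 1.79). Of the NE list (11 genes) 5 fell and 0 rose, with a median of -0.81. The part of these cell types in the levels of Dnmt3l and Dnmt3b was not tested.

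Neither gene of the maintenance pair passed the test on day 3. Dnmt1 samples held 15500, 17005 and 16760 normalized counts in Tet3+/+, 13237, 13978 and 14201 in Tet3m/m, and 15619 and 13661 in Tet3-/-. No Tet3m/m sample reached a Tet3+/+ sample, as for 36.7% of all genes in that comparison, and it differed by -0.25 on the log2 scale (SE 0.087, limma adjusted p 0.0852). In Tet3-/- Dnmt1 overlapped Tet3+/+ and differed by -0.17 (SE 0.097, limma adjusted p 0.359). Uhrf1 was at 10591, 11629 and 11345 in Tet3+/+, 7749, 9818.5 and 9845 in Tet3m/m, and 8601 and 7463 in Tet3-/-. Uhrf1 differed by -0.30 in Tet3m/m (SE 0.11, adjusted p 0.0996) and -0.48 in Tet3-/- (SE 0.12, adjusted p 0.0745), and no sample of either mutant reached Tet3+/+, as for 41.2% of all genes in Tet3-/-. For Tet3-/- the call depended on the test, with an adjusted p of 0.0147 in DESeq2 and 0.0267 in limma with those 2 groups alone, and the limma call was also gained without Tet3m/m replicate 1 (0.0186).

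The S phase list (16 genes), which holds RNA levels and does not measure DNA replication itself, lay on the same side as Uhrf1 and Dnmt1. Its median log2 fold change was -0.19 in Tet3m/m, with 2 of 16 genes called lower (Rrm2 -0.63 and Ccne1 -0.31) and 0 higher, against 13.9% of all genes called. In Tet3-/- the median was -0.33, with 0 called in limma and 0 of 16 above 0. In that comparison 10 of the 16 had an unadjusted p under 0.05, against 20.1% of all genes. There edgeR called 0, against 0.502% of all genes, and DESeq2 4, against 8.35%. Mean log2 levels of the list were 12.27 to 12.42 in Tet3+/+, 12 to 12.27 in Tet3m/m and 11.88 to 12.18 in Tet3-/-. A lower median was not particular to S phase genes. In Tet3m/m and Tet3-/- the medians were -0.26 and -0.30 for base excision repair genes and -0.34 and -0.09 for TET partners. For maintenance partners they were -0.22 and -0.20, and for methyl-CpG readers -0.03 and 0.04. The part of cell division in the level of Uhrf1 and Dnmt1 was not tested.

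The remaining oxidation and repair genes showed no call on day 3. Tet1 lay between 1469 and 2028 normalized counts over the 8 samples and Tet2 between 1768 and 2319, and for both genes each mutant overlapped Tet3+/+. The intervals of the log2 difference were -0.21 to 0.47 for Tet1 and -0.14 to 0.37 for Tet2 in Tet3m/m, so a change of the size seen for Dnmt3l lay outside them. Tdg was at 4983, 4752 and 5029 in Tet3+/+, 4761, 4692 and 4121 in Tet3m/m, and 5440 and 4950 in Tet3-/-. Its log2 difference was -0.12 (adjusted p 0.401) and 0.08 (0.706).

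The empty-vector cells of the Dnmt1 experiment gave a second comparison of the genotypes, with wider differences. All 9 genes passed in Tet3m/m against Tet3+/+, 5 higher and 4 lower, where 45.6% of all genes passed (21.9% higher, 23.6% lower). All 9 also passed in Tet3-/-, 3 higher and 6 lower, where 53.2% of all genes passed (26.7% higher, 26.6% lower). With a fold change above 1.5 asked as well, 3 remained in each: Tet1, Tet2 and Tet3 in Tet3m/m, against 21.2% of all genes, and Dnmt3b, Dnmt3l and Tet1 in Tet3-/-, against 24.9%. Between the mutants 8 passed, all but Uhrf1, against 65.6% of all genes.

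**Figure D2:**
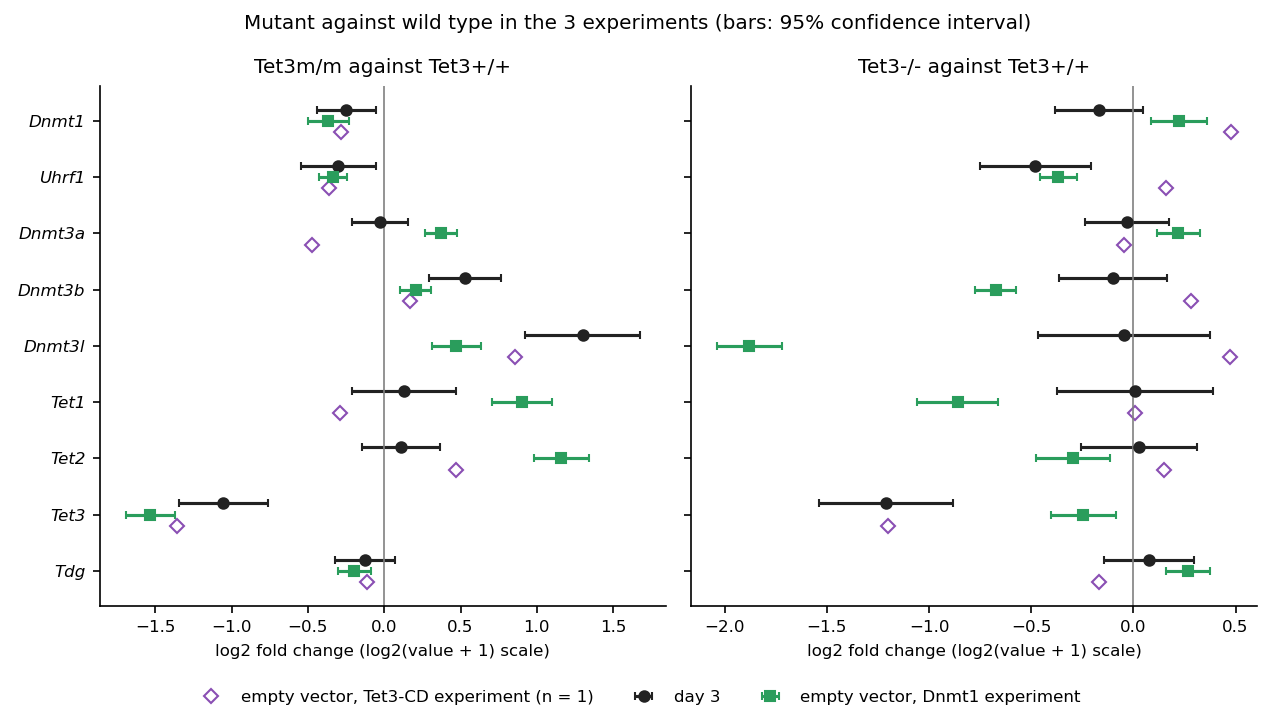
Log2 fold change of each gene against Tet3+/+ for Tet3m/m and Tet3-/-, on day 3 and with the empty vector in the Dnmt1 experiment, with 95% intervals from limma. Open diamonds without an interval are ratios of the single empty-vector samples of the Tet3-CD experiment. With the empty vector in the Dnmt1 experiment, Dnmt1, Dnmt3b, Dnmt3l, Tet1, Tet2 and Tdg point in opposite directions in the 2 mutants. Uhrf1 lies below 0 in the 4 comparisons with intervals. In the Tet3-CD experiment Uhrf1 is at -0.36 in Tet3m/m and 0.16 in Tet3-/-, and Dnmt3b and Dnmt3l lie above 0 in both mutants.

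Dnmt3l ran from lowest to highest across the mutants with the empty vector: 5837 and 5487 normalized counts in Tet3+/+, 7749 and 7962.5 in Tet3m/m, and 1405.5 and 1679 in Tet3-/-. It rose 1.39-fold in Tet3m/m (limma adjusted p 2.44e-05) and fell by 3.68-fold in Tet3-/- (2.36e-14). Dnmt3b was at 4997 and 4950, 5757 and 5711, and 3210 and 3024 in the same order of genotypes. It rose 1.15-fold in Tet3m/m (adjusted p 0.00146) and fell by 1.60-fold in Tet3-/- (2.38e-10). Dnmt3a did not follow that split: it was at 6831 and 6694 in Tet3+/+ and was higher in both mutants, by 0.37 on the log2 scale in Tet3m/m (2.6e-06) and 0.22 in Tet3-/- (0.000991).

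Tet1 and Tet2, which showed no call on day 3, differed widely here. Values of Tet1 were 2919 and 3350 normalized counts in Tet3+/+, 5800 and 5885 in Tet3m/m, and 1594 and 1860 in Tet3-/-. It rose 1.87-fold in Tet3m/m (limma adjusted p 7.11e-08) and fell by 1.82-fold in Tet3-/- (1.43e-07). Tet2 was at 1823 and 1749 in Tet3+/+, 3844 and 4139 in Tet3m/m, and 1332 and 1588 in Tet3-/-. It rose 2.23-fold in Tet3m/m (3.3e-10) and fell by 1.23-fold in Tet3-/- (0.00659), the latter lost without one of the Tet3+/+ samples (0.0548) or without Tet3-/- replicate 1 (0.17).

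The pluripotency list split the empty-vector genotypes in the same directions as Dnmt3l, Dnmt3b, Tet1 and Tet2. All 9 of its genes rose in Tet3m/m, with a median log2 fold change of 1.32, Klf4 at 2.54 and Nanog at 1.45. All 9 fell in Tet3-/-, with a median of -2.42, Nanog at -3.27 and Pou5f1 at -3.07. The median over all genes was 0.01 and 0.00, and 45.6% and 53.2% of all genes were called. Summed, the list was at 27873 to 28297 normalized counts in Tet3+/+, 77053 to 77675 in Tet3m/m and 5722 to 6043 in Tet3-/-, and no gene of it was at 0. The endoderm list moved likewise, with 7 of 8 genes higher in Tet3m/m and 6 lower and 2 higher in Tet3-/-, as did the primitive streak and mesoderm list (7 genes tested), with 5 higher and 1 lower, and 0 higher and 4 lower. On the NE list 3 of 11 rose and 5 fell in Tet3m/m, and 5 rose and 4 fell in Tet3-/-. The share of undifferentiated or endoderm cells in these levels was not tested.

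Of the maintenance pair, Uhrf1 was lower in both mutants and Dnmt1 in one. Uhrf1 was at 14232 and 14878 normalized counts in empty-vector Tet3+/+, 11544 and 11506 in Tet3m/m, and 11061 and 11499 in Tet3-/-. It fell by 1.26-fold and 1.29-fold (limma adjusted p 1.63e-06 and 4.58e-07), and the mutants did not differ from each other beyond the test (log2 -0.03, 95% interval -0.12 to 0.06). Dnmt1 was at 14679 and 15225 in Tet3+/+, 11934 and 11285 in Tet3m/m, and 17356 and 17554 in Tet3-/-. It fell by 1.29-fold in Tet3m/m (8.23e-05) and rose 1.17-fold in Tet3-/- (0.00647), a call lost without one of the Tet3+/+ samples (0.0613). S phase genes were lower in both mutants (7 of 16 lower and 2 higher in Tet3m/m, 11 lower and 0 higher in Tet3-/-), with medians of -0.10 and -0.31. The shares of all genes called were 45.6% and 53.2%. Tdg was lower in Tet3m/m (3539 and 3221 against 3914 and 3820, log2 -0.20, adjusted p 0.00353) and higher in Tet3-/- (4688 and 4615, log2 0.27, 0.000173). The Tdg call in Tet3m/m was lost without Tet3m/m replicate 2 (0.0977).

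**Figure D3:**
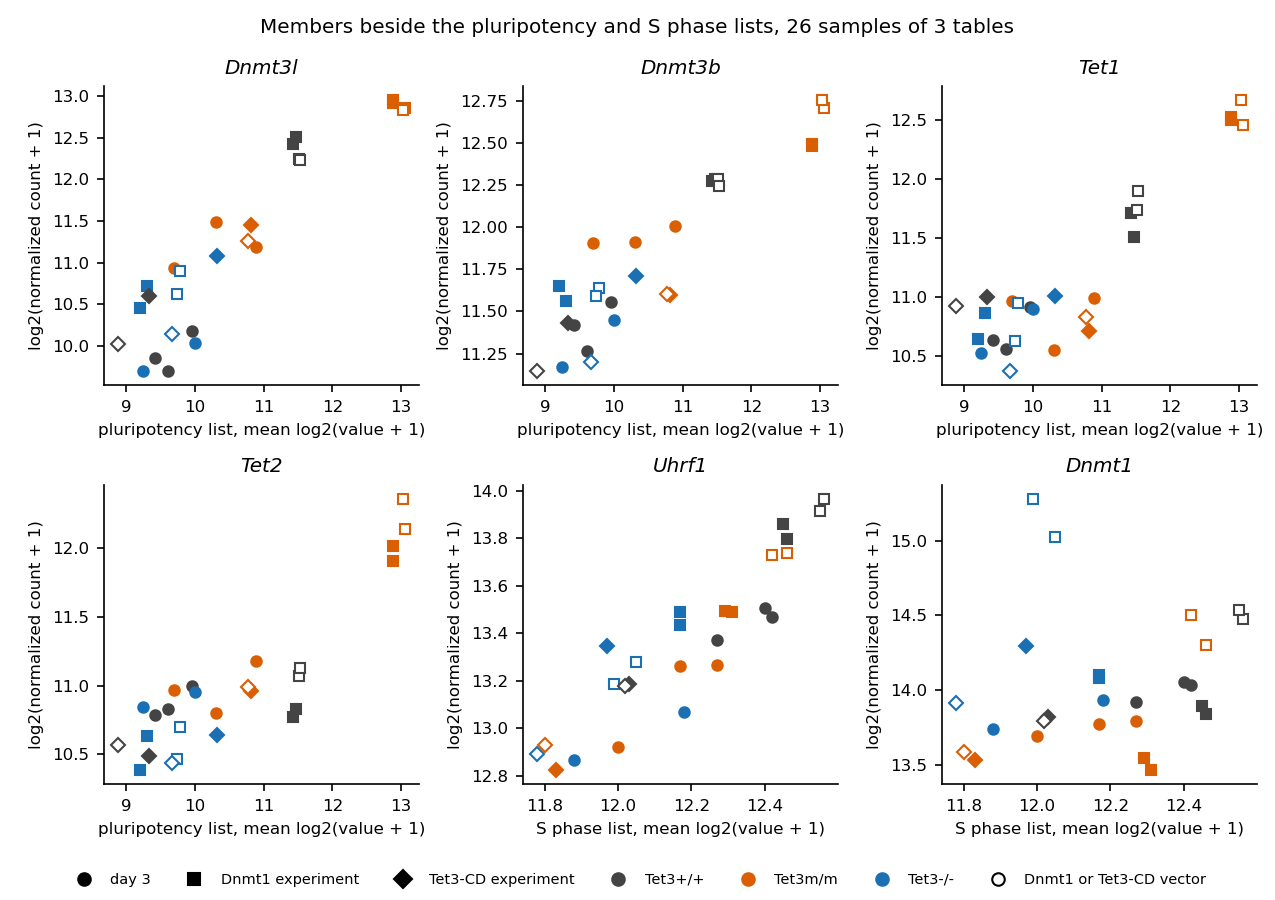
Level of 6 of the genes (log2 of the normalized count plus 1) against the mean log2 level of the pluripotency list (Dnmt3l, Dnmt3b, Tet1, Tet2) or the S phase list (Uhrf1, Dnmt1) in all 26 samples, with colour for genotype, shape for table and open symbols for the Dnmt1 or Tet3-CD vector. Levels across tables were normalized separately, and the points share their genotype groups. In the Dnmt1 experiment, Tet3m/m samples lie at 12.88 to 13.05 on the pluripotency axis and Tet3-/- samples at 9.196 to 9.786, and the Dnmt1-vector Tet3-/- samples stand apart in the Dnmt1 panel.

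The second question of the Dnmt1 experiment was what the Dnmt1 vector changed. Dnmt1 itself rose in each genotype: to 22799 and 23768 normalized counts in Tet3+/+, 20245 and 23211 in Tet3m/m, and 33380 and 39854 in Tet3-/-. Its reads include those of the vector, so the gene's own RNA cannot be told apart from the transfected copy. Every sample with the vector was above every sample of its genotype without it, where 52.7%, 53.5% and 52.0% of all genes did not overlap in either direction. The rise was 1.56-fold, 1.87-fold and 2.09-fold (limma adjusted p 5.66e-06, 7.46e-09 and 1.36e-09), or 8332, 10118 and 19162 normalized counts added to the empty-vector mean. Compared with Tet3+/+, the rise was larger in Tet3-/- by 0.42 on the log2 scale (SE 0.092, adjusted p of the interaction 0.00502). In Tet3m/m it was larger by 0.26 (95% interval 0.07 to 0.45), which did not pass (adjusted p 0.226).

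**Figure D4:**
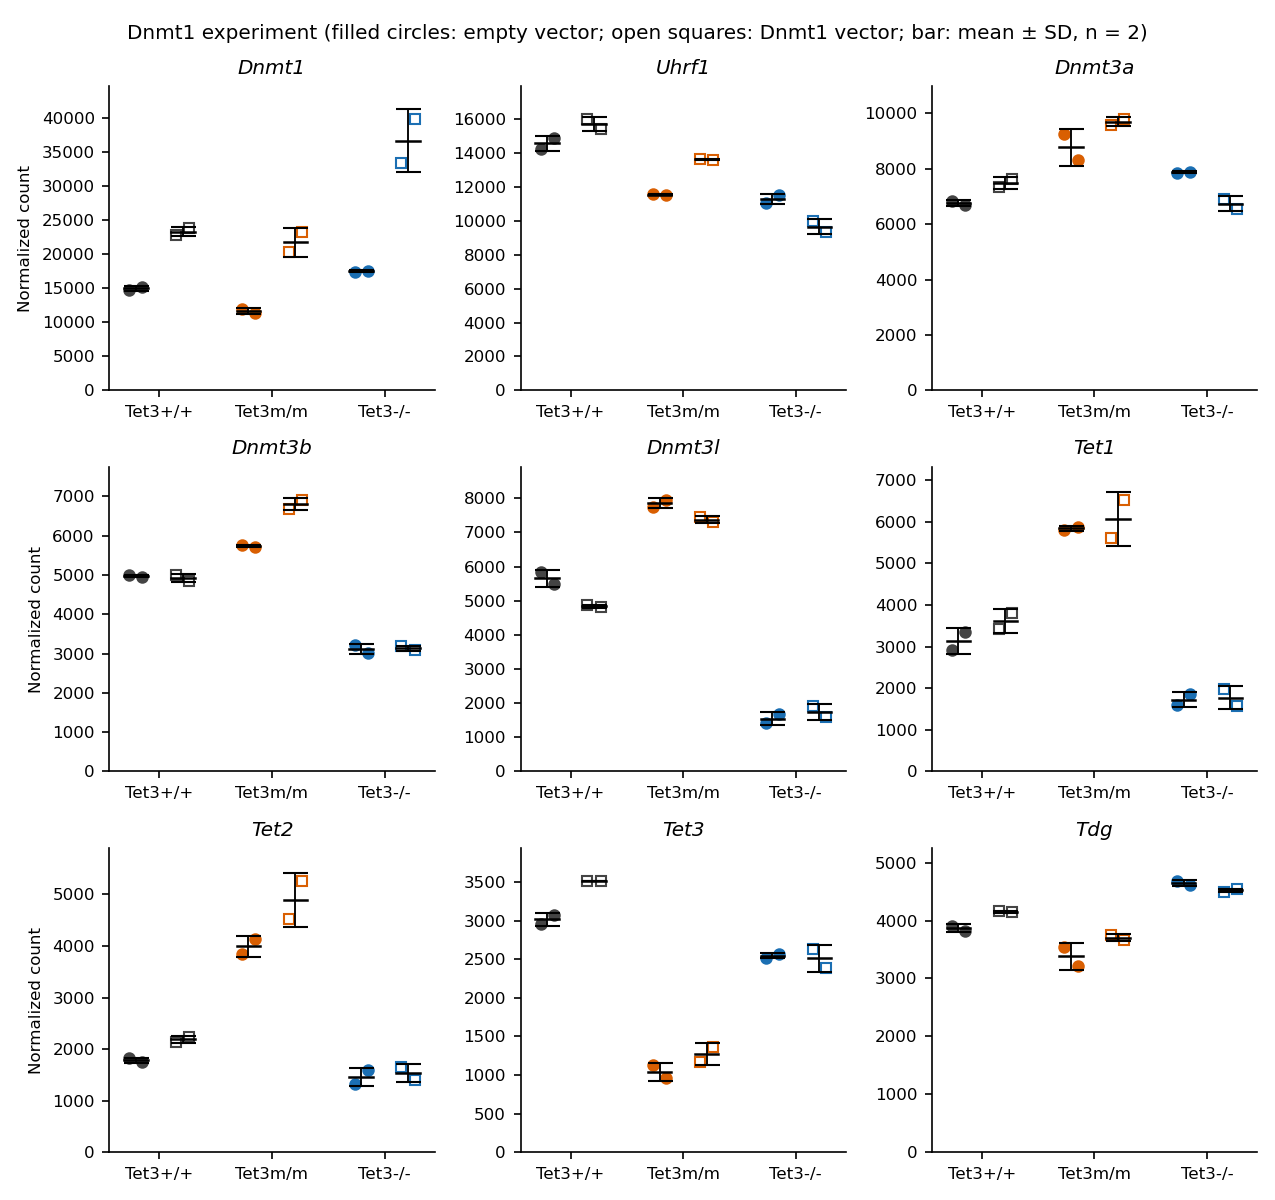
Normalized counts of the 9 genes in the 12 samples of the Dnmt1 experiment, by genotype and vector, with 1 point per sample and a bar at the group mean. Dnmt1 is higher with its vector in each genotype, and the genotypes differ more than the vectors for Dnmt3l, Tet1 and Tet2.

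Beside Dnmt1 itself, the number of the other 8 genes called with the vector was 1 in Tet3+/+, 4 in Tet3m/m and 2 in Tet3-/-. The counts below include Dnmt1, whose reads include those of the vector. In Tet3+/+, 2 genes were called, both higher (Dnmt1 and Tet2), against 5.59% of all genes (2.75% higher, 2.84% lower). In Tet3m/m, 5 were called, all higher (Dnmt1, Uhrf1, Dnmt3b, Tet2 and Tet3), against 10.2% (6.73% higher, 3.47% lower). In Tet3-/-, 3 were called, Dnmt1 higher and Uhrf1 and Dnmt3a lower, against 13.4% (7.46% higher, 5.96% lower). With a fold change above 1.5 asked as well, Dnmt1 alone remained in each genotype, against 1.17%, 2.46% and 3.53% of all genes.

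Uhrf1 and Dnmt3a were called in opposite directions from Dnmt1 in Tet3-/-. Uhrf1 values with the vector were 16014 and 15431 normalized counts in Tet3+/+, 13651 and 13601 in Tet3m/m, and 9954 and 9324 in Tet3-/-. The vector moved it by 0.11 on the log2 scale in Tet3+/+ (limma adjusted p 0.15), 0.24 in Tet3m/m (0.000928) and -0.23 in Tet3-/- (0.00135). The response in Tet3-/- was lower than in Tet3+/+ by 0.34 on the log2 scale (SE 0.062, interaction adjusted p 0.0013). Dnmt3a was at 7325 and 7642 with the vector in Tet3+/+ and at 6925 and 6549 in Tet3-/-. It changed by 0.15 (0.0976) and -0.23 (0.00445, lost without the Dnmt1-vector Tet3-/- replicate 2, 0.0525), and the responses differed by -0.37 (SE 0.072, interaction adjusted p 0.00203).

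Dnmt3l showed a difference between responses without a call in either genotype. It was at 4866.5 and 4811 normalized counts with the vector in Tet3+/+ (log2 -0.23, limma adjusted p 0.087) and at 1906 and 1581.5 in Tet3-/- (0.18, 0.139). The responses differed by 0.40 (SE 0.11, interaction adjusted p 0.0202). This call was lost without one of the empty-vector Tet3+/+ samples (0.103), empty-vector Tet3-/- replicate 1 (0.134), Dnmt1-vector Tet3+/+ replicate 1 or 2 (0.069 and 0.0709) or Dnmt1-vector Tet3-/- replicate 1 (0.0609). In all, 4 of the 9 genes had a response in Tet3-/- that differed from Tet3+/+ (Dnmt1 and Dnmt3l higher, Uhrf1 and Dnmt3a lower), against 9.71% of all genes (5.24% higher, 4.47% lower). For Dnmt1 the reads include those of its vector.

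For Tet3m/m, 0 of the 9 responses differed from Tet3+/+ in limma, against 1.31% of all genes, and 10.9% at an unadjusted p under 0.05. At an unadjusted p under 0.05 were 3 of the 9, Dnmt1 (0.0098), Uhrf1 (0.0492) and Dnmt3b (0.00107). DESeq2 and edgeR each called Dnmt3b, with an adjusted p of 0.0174 and 0.0443 beside 0.0691 in limma, where DESeq2 called 2.60% and edgeR 1.52% of all genes with an adjusted p. Dnmt3b was at 6691 and 6919 normalized counts with the vector in Tet3m/m and rose by 0.25 on the log2 scale (adjusted p 0.00188), while it changed by -0.01 in Tet3+/+ (0.912). Without one or other of the Dnmt1-vector Tet3-/- samples, which enter this comparison only through the shared spread, limma called Dnmt1 and Dnmt3b as well.

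The Tet2 and Tet3 calls with the vector were small and rested on single samples. Tet2 reached 2146 and 2237 normalized counts in Tet3+/+ (log2 0.30, limma adjusted p 0.0485) and 4514 and 5264 in Tet3m/m (0.29, 0.0351). In Tet3+/+ the Tet2 call was lost without any of the 4 samples compared (adjusted p 0.143 to 0.258) and without either empty-vector Tet3m/m sample (0.0616 and 0.0614). In Tet3m/m it was lost without either empty-vector sample (0.245 and 0.074), Dnmt1-vector replicate 2 (0.372) or either Dnmt1-vector Tet3+/+ sample (0.0509 and 0.0507). Tet3 reached 1173 and 1369 in Tet3m/m (0.28, 0.022), a call lost without empty-vector Tet3m/m replicate 2 (0.304) or Dnmt1-vector Tet3m/m replicate 2 (0.302). Tet1 and Tdg were called in no genotype, with Tet1 at 0.21, 0.05 and 0.03 on the log2 scale and Tdg at 0.10, 0.13 and -0.04 in Tet3+/+, Tet3m/m and Tet3-/-.

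The S phase list was followed beside Uhrf1 under the Dnmt1 vector, which changed 5.59%, 10.2% and 13.4% of all genes in Tet3+/+, Tet3m/m and Tet3-/-. In Tet3+/+, 1 of 16 rose and 0 fell (median 0.09), in Tet3m/m 6 rose and 0 fell (median 0.16, with the helicase gene Mcm5 at 0.22), and in Tet3-/- 0 rose and 8 fell (median -0.16, with Mcm7 at -0.20). The response of S phase genes in Tet3-/- was lower than in Tet3+/+ for 8 of 16 genes (median -0.26), against 4.47% of all genes. The pluripotency list went the other way in Tet3-/-, with 8 of 9 genes higher and a median of 0.46, and Nanog at 1.03 and Pou5f1 at 0.69. Of the NE list 4 of 11 rose and 0 fell in Tet3+/+ (median 0.50), 5 rose and 0 fell in Tet3m/m (0.37), and 1 rose and 2 fell in Tet3-/- (-0.23). The parts of cell division, of undifferentiated cells and of NE cells in these responses were not tested.

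In the Tet3-CD experiment there was 1 sample per genotype and vector, so its values have no replicate check and no test. Past a ratio of 1.5-fold with the Tet3-CD vector were 0 of 9 genes in Tet3+/+ (13.4% of all genes, 6.11% higher and 7.30% lower), 1 of 9 in Tet3m/m (10.1%, 4.58% higher and 5.53% lower) and 2 of 9 in Tet3-/- (21.5%, 9.89% higher and 11.6% lower). Tet3, whose reads include those of the vector, went from 1850 to 5232 normalized counts in Tet3m/m, from 2070 to 2759 in Tet3-/- and from 4755 to 5441 in Tet3+/+. The log2 ratios were 1.499, 0.41 and 0.19, so the Tet3 signal added differed by sample.

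Dnmt3l was lower with the Tet3-CD vector in all 3 genotypes. It went from 1553 to 1035 normalized counts in Tet3+/+ (log2 ratio -0.58, just inside 1.5-fold), from 2811 to 2451 in Tet3m/m (-0.20) and from 2159 to 1128 in Tet3-/- (-0.94). Tet1 went from 2061 to 1318 in Tet3-/- (-0.64) and differed by -0.08 and 0.12 in Tet3+/+ and Tet3m/m. Dnmt1, Uhrf1 and Dnmt3b were also lower with the vector in Tet3-/-, with log2 ratios of -0.38, -0.45 and -0.51. In Tet3+/+ and Tet3m/m the ratios of Dnmt1 and Uhrf1 lay between -0.03 and 0.11, while those of Dnmt3b were -0.29 and 0.006. The ratios of Tdg were -0.03, 0.02 and 0.12. In the Tet3-/- pair, the pluripotency list was lower as well, by a median of -0.64 with 6 of 9 genes past 1.5-fold, and its summed level went from 12377 to 7783. The endoderm list was lower by a median of -1.09 (6 of 8 past 1.5-fold, summed level from 18225 to 10406), and the mesoderm list by -0.44 (3 of 7). The NE list had a median of -0.77 with 6 of 11 lower and 2 higher past 1.5-fold, although its summed level went from 13367 to 20826. For the S phase list the median was -0.24, with 2 of 16 genes above 0. In the Tet3+/+ pair the pluripotency list had a median of -0.48, with 0 of 9 genes above 0 and 2 lower past 1.5-fold. Other medians there were -0.23 (endoderm), -0.23 (mesoderm), -0.26 (NE) and 0.01 (S phase). In the Tet3m/m pair they were -0.04 (pluripotency), -0.05 (endoderm), -0.18 (mesoderm), 0.01 (NE) and -0.03 (S phase). The part of these cell types and of cell division in these ratios was not tested.

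**Figure D5:**
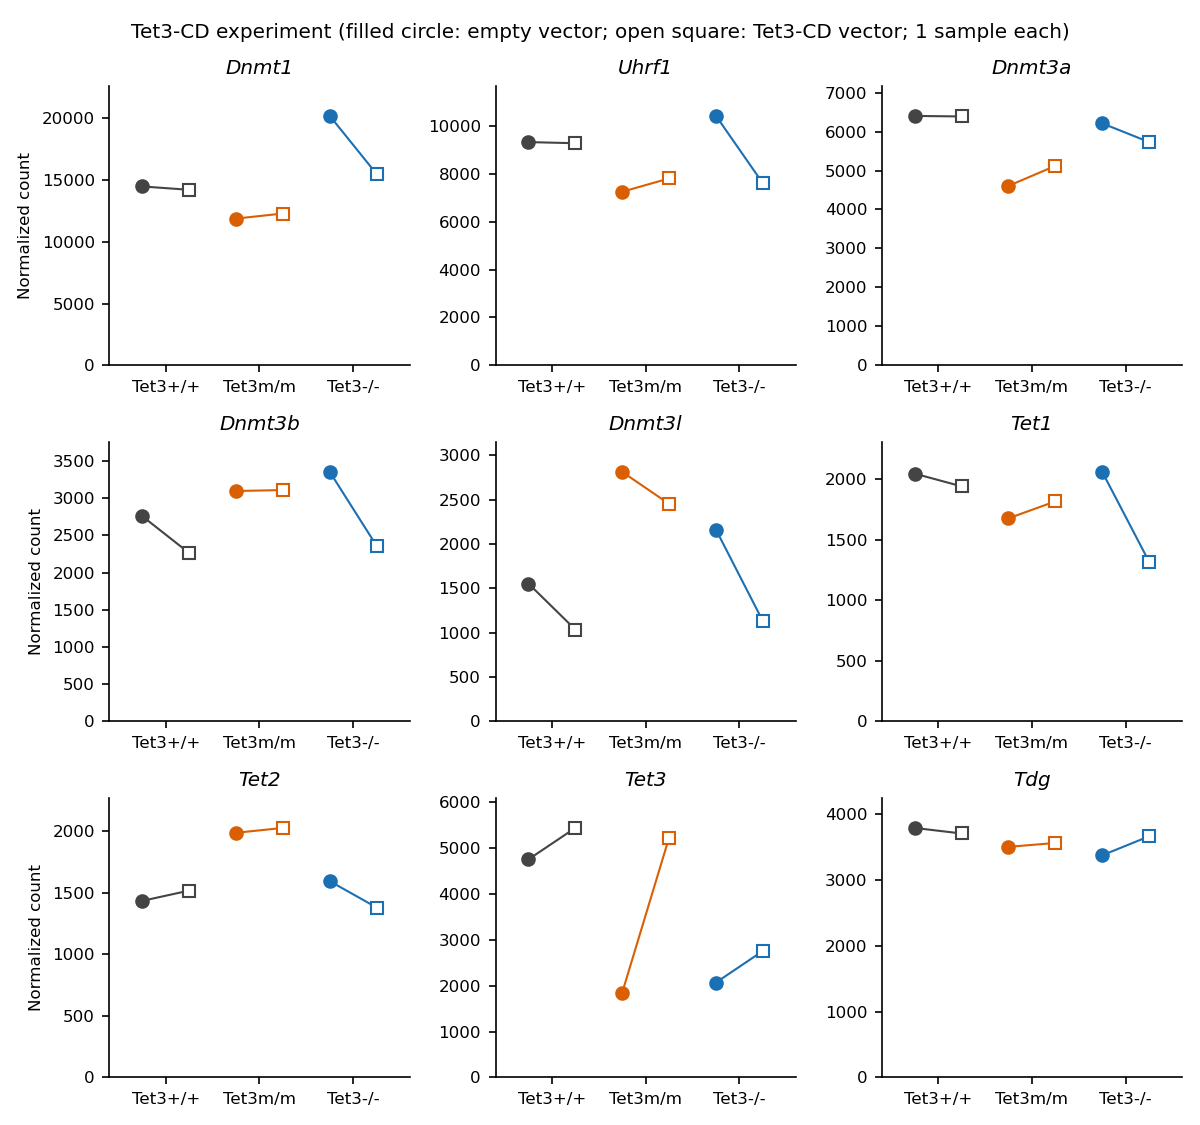
Normalized counts of the 9 genes in the 6 samples of the Tet3-CD experiment. A line joins the empty-vector sample (filled circle) and the Tet3-CD sample (open square) of a genotype, with 1 sample each. Tet3 runs from 1850 to 5232 in Tet3m/m, and the Tet3-/- line falls for Dnmt3l from 2159 to 1128.

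Between genotypes with the empty vector, 2 of 9 genes were past 1.5-fold in Tet3m/m (Dnmt3l higher at 0.86 and Tet3 lower at -1.36), against 36.3% of all genes (20.2% higher, 16.1% lower). In Tet3-/- it was 1 of 9 (Tet3 at -1.20), against 27.1% (15.4% higher, 11.7% lower). Uhrf1 was lower than Tet3+/+ in Tet3m/m (9316 against 7244) and higher in Tet3-/- (10406), and Dnmt1 was at 14455, 11859 and 20150 in the 3 genotypes. The Tet3-/- value of Dnmt3l (2159) was above that of Tet3+/+ (1553) here, whereas it was below in the Dnmt1 experiment. The pluripotency list stood likewise on the higher side, with a median log2 ratio of 1.15 for Tet3-/- here (8 of 9 genes higher and 1 lower past 1.5-fold) and 1.77 for Tet3m/m (8 higher, 1 lower). Other members did not all stand with it. In Tet3m/m and Tet3-/-, Dnmt3b was at 0.17 and 0.28 and Tet2 at 0.47 and 0.15, but Tet1 was at -0.29 and 0.01. Dnmt3a was at -0.47 and -0.04, where both mutants were called higher with the empty vector in the Dnmt1 experiment. Tdg was at -0.11 and -0.17. The endoderm list was lower past 1.5-fold for 8 of 8 genes in both, with medians of -2.03 in Tet3-/- and -2.18 in Tet3m/m. The part of these cell types in the levels of the 9 genes was not tested.

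The other genes of the pathway were followed in lists. Of all genes, 13.9% were called on day 3 in Tet3m/m and 0.681% in Tet3-/-, and with the empty vector 45.6% and 53.2%. With the Dnmt1 vector the share was 13.4% in Tet3-/-. Of 12 maintenance partners, 1 rose and 3 fell on day 3 in Tet3m/m (median -0.22): Hdac1 at 0.31, the PCNA-associated factor gene Pclaf at -0.66, the histone methyltransferase gene Ehmt2 at -0.64 and the deacetylase gene Hdac2 at -0.39. In Tet3-/- 0 of the 12 passed in limma (median -0.20), 4 had an unadjusted p under 0.05, where 20.1% of all genes did, and edgeR called 0 and DESeq2 3. With the empty vector, 3 rose and 7 fell in Tet3m/m, and 2 rose and 6 fell in Tet3-/-, where Dppa3, known to keep UHRF1 away from chromatin, was at -2.62 and Cdca7, a partner of the remodeller HELLS, at -0.58. With the Dnmt1 vector, Pclaf moved in the direction of Uhrf1, at 0.28 in Tet3+/+, 0.37 in Tet3m/m and -0.46 in Tet3-/-, where 6 of the 12 fell and 1 rose. Pcna, the replication clamp, was at 0.16 in Tet3m/m and -0.19 in Tet3-/-.

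Of 11 TET partners and regulators, 0 rose and 2 fell on day 3 in Tet3m/m, against 13.9% of all genes called. They were Gadd45a, linked to active demethylation, at -0.82 and Idh1, which makes the TET cofactor 2-oxoglutarate, at -0.47. Cxxc4, known to bind and destabilise TET2, rose by 1.96 on the log2 scale with the Dnmt1 vector in Tet3m/m (limma adjusted p 5.81e-06). Empty-vector cells had 2 higher and 5 lower in Tet3m/m (45.6% of all genes called), and 4 higher and 2 lower in Tet3-/- (53.2%), with Gadd45g at 1.35. Of 11 base excision repair genes, 0 rose and 1 fell on day 3 in Tet3m/m (Smug1, a uracil glycosylase, at -0.75), against the same 13.9%. In empty-vector cells 1 rose and 4 fell in Tet3m/m (45.6% of all genes) and 2 rose and 5 fell in Tet3-/- (53.2%), with the glycosylase gene Ung at -0.80.

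The methyl-CpG readers (8 genes) had 0 limma calls on day 3 in either mutant against Tet3+/+, with 1 gene in Tet3m/m and 3 in Tet3-/- at an unadjusted p under 0.05, where 28.6% and 20.1% of all genes had one. On the reads, edgeR called 0 of them in both (13.7% and 0.502% of all genes) and DESeq2 0 and 2 (19.0% and 8.35%). With the empty vector, 6 rose and 1 fell in Tet3-/- (median 0.51), among them Zbtb33 at 0.62 and Mbd2 at 0.55, and 2 rose and 3 fell in Tet3m/m. Of the 3 imprint protectors, which keep methylation at imprinted regions, 0 passed in limma on day 3, 1 in each mutant had an unadjusted p under 0.05, and edgeR and DESeq2 each called 1 in Tet3m/m and 0 in Tet3-/-. With the empty vector Zfp57 was at 1.42 and Trim28 at 0.36 in Tet3m/m, and both fell in Tet3-/-, by 0.53 and 0.28 on the log2 scale. The shares of all genes given above for each comparison apply to these counts.

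The genes most like Dnmt1, Uhrf1 and Tet3 over the 8 day 3 samples were sought among 12742 genes by Pearson's r of log2 values, as a description over samples that share their genotype groups. Uhrf1 was followed most closely by Pfas (r = 0.983), Fkbp4 (0.982, on chromosome 6 as Tet3 is) and Cdca7l (0.982). Over the 6 empty-vector samples of the Dnmt1 experiment these had r of 0.73, 0.955 and 0.947. For Dnmt1 they were Eif4ebp1 (0.993) and Naf1 (0.993), both on chromosome 8, and Sephs1 (0.988), with 0.02, -0.32 and 0.959 in the empty-vector samples. For Tet3 they were Reep4 (0.98), Tagap1 (0.975) and Mcrip2 (0.97), with -0.16, 0.16 and 0.729. An r of at least 0.9 was reached by 195 genes for Dnmt1, 187 for Uhrf1 and 49 for Tet3, so the named genes were the top of long series.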

How the data were processed

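RNA-seq values of 26 samples in 3 tables were used. The authors trimmed reads with Trim Galore 0.6.7, aligned them with STAR 2.7.9a and counted them with featureCounts. The deposited signal is a normalized count, the read count over the DESeq2 size factor of the sample. The paper names mm39 and the labels mm10. In each sample 100.0% of values were whole multiples of 1 read, so whole reads were recovered for count tests, and edgeR and DESeq2 each called 3 of the 9 genes on day 3 in Tet3m/m. Depth ran from 36594650 to 47710548 recovered reads per sample on day 3, from 31155842 to 50845950 with the Dnmt1 or empty vector, and from 33475041 to 37707719 for Tet3-CD.

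Genes with a mean of at least 10 were kept (17915 on day 3, 18055 for Dnmt1, 17481 for Tet3-CD). limma 3.58.1 (R 4.3.3) was fitted to log2(value + 1) with a mean-variance trend, each experiment in 1 model of group means. P-values were adjusted by Benjamini-Hochberg across every gene kept. Fold changes are on that log2(value + 1) scale. The Tet3-CD table, with 1 sample per group, got ratios and no test. Alternatives were pseudocounts (0.1, 5), filters (none, 50), edgeR 4.0.16, DESeq2 1.42.0, TMM rescaling, a model of the compared groups alone, a replicate block, a fold change above 1.5 as well, and leaving out each sample. In the Dnmt1 experiment the block fit left out all Tet3+/+ samples. The code was tested on simulated data.

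The 9 genes and the lists (maintenance partners, methyl-CpG readers, imprint protectors, TET partners, base excision repair, S phase, NE, pluripotency, mesoderm, endoderm) were chosen with earlier results of these data known. Named genes are the 9 genes, the 3 genes with the highest r to Dnmt1, Uhrf1 and Tet3 over day 3 samples at a mean of at least 100, and up to 4 called genes per list and comparison by smallest p, of which some are given. Genes named in the marker check were taken from the lists with their values known. Gene order and exon lengths come from a GRCm38 annotation, matched by name. WGBS, hmeDIP and CUT&Tag samples are not analysed here. Both empty-vector Tet3+/+ columns of the Dnmt1 table bear the same name, so neither has a replicate number.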

Additional observations from a re-analysis of the deposited data

Results flagged for a closer look

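The response to the Dnmt1 vector differed between Tet3-/- and Tet3+/+ cells for 4 of the 9 genes, by the limma interaction term, against 9.71% of all genes tested. The difference of log2 fold changes (Tet3-/- minus Tet3+/+) was 0.42 for Dnmt1, -0.34 for Uhrf1, -0.37 for Dnmt3a and 0.40 for Dnmt3l. Reads of Dnmt1 include those of the vector, so its difference cannot be told apart from a difference in the transfected copy. For Uhrf1 and Dnmt3a the 2 responses had opposite signs, positive but not called in Tet3+/+ and negative in Tet3-/-, and for Dnmt3l they were negative in Tet3+/+ and positive in Tet3-/-, with a call in neither. With a fold change above 1.5 asked as well, 0 of the 4 remained. The Dnmt3l difference passed in 7 of 12 fits with 1 sample left out (limma adjusted p up to 0.134). Each group held 2 samples, and groups of 2 or 3 samples were not examined for single distant values.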

How the results depend on the processing

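Limits. Groups of 2 or 3 samples set the precision, and where a sample left out leaves 1 in a group, that sample is assumed to vary like the others. Over 99 combinations of gene and comparison, 1926 alternative values gave 1819 with the same direction and the same side of the threshold, 39 that lost a call, 24 that gained one and 44 that changed sign, all 44 among results that were not called. Replicate numbers did not pair the samples: deviations of same-numbered samples correlated at -0.098 to 0.082 on day 3 and -0.053 to 0.029 in the Dnmt1 experiment. With the replicate number as a block, the Dnmt1 vector changed 3 rather than 5 genes in Tet3m/m, as Tet2 (limma adjusted p 0.0752) and Tet3 (0.0777) were lost. That fit also left out all Tet3+/+ samples, so the effect of the block cannot be told apart from theirs.

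Counts of the 9 genes called moved under these settings, and the cause was not tested. On day 3 in Tet3-/-, 2 rather than 1 were called by DESeq2 and with only the compared groups. With the Dnmt1 vector in Tet3+/+, where 2 were called, 1 was called with a pseudocount of 0.1 and 6 (5 higher, 1 lower) with only the compared groups. For the response in Tet3m/m, 1 rather than 0 was called by edgeR, by DESeq2 and with only the compared groups. A fold change above 1.5 left 1 with the Dnmt1 vector in each genotype, 3 in each mutant with the empty vector, and 0 for the response in Tet3-/-, which follows from its construction. In the Tet3-CD experiment, 1 rather than 0 was past 1.5-fold in Tet3+/+ with a pseudocount of 0.1 and with TMM factors (Dnmt3l). The median of the neighbours of Tet3 with the empty vector was -0.52 in Tet3m/m and 0.73 between the mutants with 100 genes on each side, and 0.36 in Tet3-/- with 25.

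Leaving out 1 sample at a time, the genes called were 3 to 3 and 0 to 2 on day 3 in Tet3m/m and Tet3-/-, 1 to 2 between the mutants, 1 to 3, 3 to 6 and 3 to 4 with the Dnmt1 vector in Tet3+/+, Tet3m/m and Tet3-/-, 8 to 9, 7 to 9 and 7 to 8 with the empty vector (Tet3m/m, Tet3-/- and between them), and 0 to 2 and 3 to 4 for the responses in Tet3m/m and Tet3-/-.

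Signs that turned belonged to uncalled log2 differences. With all samples, Dnmt3a turned to 0.0048 on day 3 in Tet3-/- (replicate block), to -0.0056 (edgeR), -0.0016 (DESeq2) and -0.0036 (TMM) between the mutants, and to 0.0040 (edgeR) and 0.0040 (TMM) for the response in Tet3m/m, where Tet2 turned to 0.0068 (edgeR). With 1 sample left out, ranges that crossed 0 were Dnmt3a -0.085 to 0.0070 on day 3 in Tet3m/m, Tet1 -0.18 to 0.20, Dnmt3l -0.21 to 0.12, Tet2 -0.028 to 0.089 and Dnmt3b -0.24 to 0.036 on day 3 in Tet3-/-, and Dnmt3a -0.037 to 0.055, Tet2 -0.18 to 0.014, Dnmt1 -0.014 to 0.18, Tet3 -0.34 to 0.033 and Tet1 -0.31 to 0.066 on day 3 between the mutants. In the Dnmt1 experiment they were Dnmt3b -0.037 to 0.0079 with the Dnmt1 vector in Tet3+/+, Tet1 -0.056 to 0.16 with the Dnmt1 vector in Tet3m/m, Tet1 -0.13 to 0.20, Tet2 -0.053 to 0.20, Dnmt3b -0.035 to 0.051 and Tet3 -0.091 to 0.048 with the Dnmt1 vector in Tet3-/-, Dnmt3a -0.078 to 0.077, Tet2 -0.12 to 0.10, Tet3 -0.050 to 0.17 and Tdg -0.036 to 0.10 for the response in Tet3m/m, and Dnmt3b -0.020 to 0.066 for the response in Tet3-/-.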

Other observations

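The ratio of Dnmt1 to Uhrf1 per kilobase of exon, a measure chosen after the values were seen, is given as a description. On day 3 and with the empty vector of the Dnmt1 experiment, an exact test against Tet3+/+ could not pass. Its smallest possible 2-sided p was 0.1 to 0.333 at these group sizes. On day 3 it was 0.844 to 0.853 in Tet3+/+, 0.822 to 0.986 in Tet3m/m, and 1.048 and 1.057 in Tet3-/-. With the empty vector in the Dnmt1 experiment it was 0.591 to 0.595 in Tet3+/+, 0.566 to 0.597 in Tet3m/m and 0.881 to 0.906 in Tet3-/-. The Dnmt1 vector gave 0.822 and 0.889 in Tet3+/+, 0.856 and 0.985 in Tet3m/m, and 1.936 and 2.468 in Tet3-/-. The single empty-vector samples of the Tet3-CD experiment held 0.896, 0.945 and 1.118 in Tet3+/+, Tet3m/m and Tet3-/-.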
